A study of Macaca mulatta with 64 samples.

Results

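CALB1, HPCA and HPCAL1 are 3 genes of neuronal calcium-binding proteins, and the tagged 5′ RNA ends assigned to them were followed over the macaque brain. All tag clusters (TCs) that the authors assigned to these genes were taken, 163 of 160389 TCs, and the genes are 3 of the 13269 genes with a TC. Tags were counted by CAGE-seq, which reads the 5′ ends of capped, polyadenylated RNA, in 64 libraries of healthy rhesus macaques. The regions were the cerebellar cortex (CB), the CA1 field and dentate gyrus (DG) of the hippocampus, and 5 neocortical regions, namely prefrontal (PFC), posterior cingulate (PCC), temporal, parietal (PC) and occipital cortex (OC). Animals were males and females of 1, 4, 10 and 20 yr. Each combination of region, age and sex had 1 library, so each region had 8 libraries and each age 16. The combinations of age and sex are called animal groups here, and 8 libraries, 1 from each region, shared an animal group. The labels name no treatment and no allele.

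Calcium entering a neuron is bound by proteins with EF-hand loops. Calbindin-D28k, the product of CALB1, is a fast buffer with many EF hands and a standard marker of Purkinje cells of the cerebellum, of granule cells of the dentate gyrus and of some cortical interneurons. Hippocalcin, the product of HPCA, belongs to the neuronal calcium sensors, small proteins that carry a myristoyl group and expose it when calcium binds, which moves them to membranes. It is known for its abundance in hippocampal and cortical pyramidal neurons. HPCAL1 encodes hippocalcin-like protein 1, also called VILIP-3, a close relative of hippocalcin that is known from Purkinje cells in rodents. The values below are TPM, tag numbers scaled by the authors to a common total per library, summed over the TCs of a gene. They are not corrected for gene length, so levels are compared between libraries and not between genes. A ratio of HPCA to HPCAL1 is used below for its difference between regions alone. In pieces of tissue, fewer cells of a type and less RNA per cell cannot be told apart.

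The libraries differed in how much of the transcriptome they listed. Between 545 and 8143 genes had a TC, with the highest median in CA1 (5474 genes) and the lowest in PCC (1254 genes). No value above 0 lay under 1 TPM, which was 2 to 7 tags at the smallest listed value of a library. A gene at 0 is therefore a gene that was not listed, not one shown to be silent. The listed values of CALB1 stood for 6 to 7394 tags, those of HPCA for 10 to 14443 tags and those of HPCAL1 for 3 to 3855 tags. Levels on the log2(TPM + 1) scale and the log2 number of genes listed had a Pearson's r over the 64 libraries of 0.27 for CALB1, 0.26 for HPCA and 0.21 for HPCAL1. With region means subtracted it was 0.48, 0.34 and 0.36, given as a description. A fit with the log2 number of genes listed as a covariate is given below where it changed a call.

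CALB1 lies on chromosome 8 from 92700758 to 92724666 on the minus strand of the MMUL 1.0 build, a span of 23909 nt. It had 7 TCs, of which 3 were listed in more than 1 library. A single position, 138 nt upstream of the annotated start, was listed in 45 of the 46 libraries with any CALB1 tag. It held 98.3% of the CALB1 TPM summed over all libraries and was the strongest position in 42 of those 46 libraries. CALB1 thus had the most narrowly placed signal of the 3 genes. The only other TC with more than 1% of the TPM lay 23090 nt after the start, near the annotated end. It was listed in 5 libraries with 1.36% of the TPM. In the temporal cortex this distal TC made up 35.7% of the CALB1 TPM, although only 2 of 8 libraries listed it.

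HPCA lies on chromosome 1 from 35674549 to 35682703 on the plus strand, a span of 8155 nt. It had 109 TCs, 33 of them in more than 1 library, and 39 when positions less than 20 nt apart were joined. Most HPCA tags lay far from the annotated start. The last 10% of the span held 95.9% of the TPM, whereas positions within 500 nt of the start held 1.71% and the rest of the gene 2.39%. A pair of positions carried most of it. The TC at 7711 nt after the start was listed in 38 libraries with 34.6% of the TPM, and the TC at 7751 nt, 40 nt further on, was listed in 36 libraries with 31.9%. Of 25 libraries with both, 10 had more tags at the first, so neither position led throughout. They lie 443 and 403 nt before the annotated end. Near the start, the joined cluster from 48 nt upstream to the start itself was listed in 15 libraries and held 0.938% of the TPM. TMEM54, on the opposite strand, is the neighbouring gene beyond the end of HPCA. No HPCA position was also assigned to another gene.

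HPCAL1 lies on chromosome 13 from 10397577 to 10516392 on the plus strand, a span of 118816 nt. It had 47 TCs, 14 of them in more than 1 library, and 22 when joined. Its tags fell at both ends of the gene. Positions within 500 nt of the start held 32.3% of the TPM, the last 10% of the span held 61.0% and the stretch between held 6.72%. The TC at the annotated start itself was listed in 15 libraries with 19.4% of the TPM. The TC at 112170 nt after the start was listed in 17 libraries with 35.0%. Of the 51 libraries with any HPCAL1 tag, 17 listed it only near the start, 10 only in the last 10% and 17 in both, and the rest also or only listed it between. Which exon or untranslated region these positions fall in was not analysed here, and annotated spans were not checked against another annotation. Whether the HPCA and HPCAL1 positions far from the annotated start are sites where transcription starts was not tested.

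**Figure D1:**
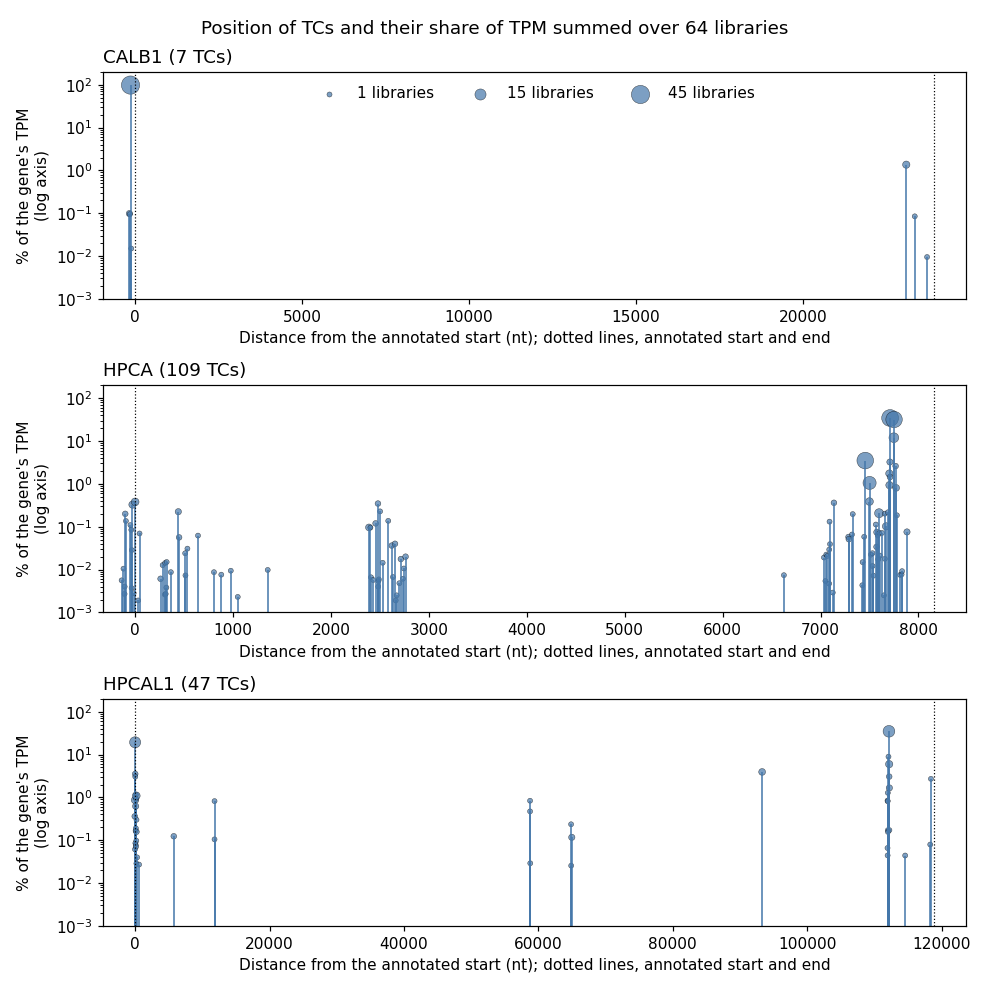
Position of the TCs of CALB1, HPCA and HPCAL1. The x-axes give the distance from the annotated start in nt, the y-axes the percent of the gene's TPM summed over 64 libraries on a log axis, and the size of a point the number of libraries that list the TC. CALB1 has 1 dominant TC 138 nt upstream of the start, HPCA has its main TCs at 7711 and 7751 nt near the annotated end, and HPCAL1 has main TCs at the start and at 112170 nt.

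In CB, CALB1 was high and HPCA was close to absent, while HPCAL1 varied widely. CB libraries had 529 to 2120 TPM of CALB1 with a median of 1338, and the 56 libraries of the other regions had 0 to 577 TPM with a median of 29.1. Only 1 of those 56 reached the lowest CB library, the PFC library of 1-yr-old females with 577 TPM. For HPCA, CB libraries had 0 to 114 TPM with a median of 1.53, and the others had 0 to 3810 TPM with a median of 681. HPCA was listed in 4 of 8 CB libraries, with 11.2 and 25.2 TPM in 1-yr-old males and females, 3.06 TPM in 4-yr-old females and 114 TPM in 20-yr-old females. It was listed in 55 of 56 other libraries, and 3 of the 56 lay at or under the highest CB library. CB and the rest of the brain samples were thus nearly separated by both genes, in opposite directions.

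CALB1 had a mean of 1263 TPM in CB against 92.5 TPM elsewhere, a ratio of 13.6. The difference in log2(TPM + 1) was 6.14 ± 0.85 (SE), with an adjusted p of 7.81e-07 (limma, Benjamini-Hochberg over all genes tested), and CALB1 was higher in CB in 8 of 8 animal groups. HPCA averaged 19.2 TPM in CB and 991 TPM elsewhere. Its log2 difference was −7.05 ± 0.72 (SE), with an adjusted p of 9.55e-11 (limma, Benjamini-Hochberg), and it was lower in CB in 8 of 8 animal groups. By p, HPCA ranked 6 and CALB1 ranked 11 among all genes tested. In this comparison 2.23% of all genes tested were called, 0.884% as higher and 1.34% as lower in CB, and 2 of the 3 genes were called. The median difference of all genes was −0.43.

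HPCAL1 in CB had 492 and 130 TPM in 1-yr-old males and females, 87.2 and 665 TPM in 10-yr-old males and females, and 244 and 39.6 TPM in 20-yr-old males and females. It was listed at 0 in both 4-yr-old CB libraries. The other regions had 0 to 464 TPM with a median of 18.9, and 10 of their 56 libraries reached the CB median of 109 TPM. HPCAL1 averaged 207 TPM in CB and 56.5 TPM elsewhere and was higher in CB in 6 of 8 animal groups. The log2 difference of 1.70 ± 1.00 (SE) did not pass the test (adjusted p = 0.485, limma with Benjamini-Hochberg adjustment), and its 95% interval ran from −0.30 to 3.70.

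The position of the tags mattered for HPCA. With only TCs within 500 nt of the annotated start, the CB difference of HPCA was −1.02 on the log2 scale with an adjusted p of 0.626 (limma, Benjamini-Hochberg), and that of HPCAL1 was −0.10. The CB difference of CALB1 was 6.28 with an adjusted p of 9.56e-07 under the same restriction. Near its start, HPCA had 75.7 TPM in the 20-yr-old female CB library and none in the other 7, and DG libraries had 0 to 197 TPM there with a median of 3.96. The strong CB difference of HPCA thus rested on the TCs near the annotated end. Near its start HPCA was listed in 27 of 64 libraries, with a median of 0 TPM. Whether RNA from the annotated start was lower in CB cannot be told from values this low.

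**Figure D2:**
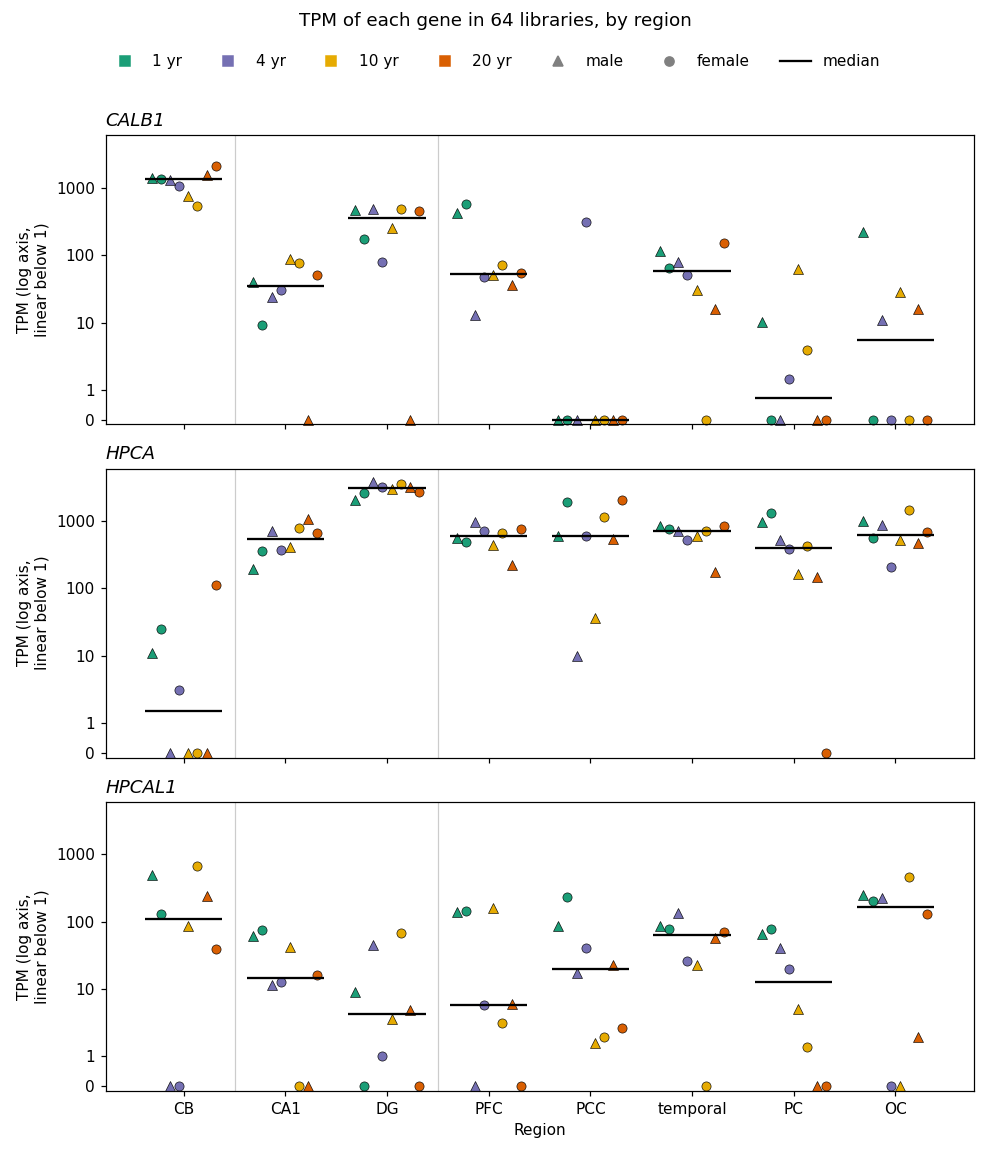
TPM of CALB1, HPCA and HPCAL1 in each of 64 libraries, by region on the x-axis and with TPM on a log axis that is linear below 1. Each point is a library, colored by age, with its marker giving the sex, and lines are medians of 8. CALB1 is highest in CB with a median of 1338 TPM, HPCA is highest in DG with a median of 3086 TPM and lowest in CB with 1.53 TPM, and the HPCAL1 points of the regions overlap.

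Some markers of the cell types of CB moved with these differences. The 7 granule cell markers with a TC, of 8 listed, summed to between 1104 and 2227 TPM in CB libraries and to at most 771 TPM in any other library. Of 4 tested, 3 were higher in CB, CBLN3 and CBLN1, which encode secreted cerebellins, and NEUROD1. The 5 Purkinje cell markers with a TC, of 8 listed, summed to between 0 and 1888 TPM in CB with a median of 211, against medians from 1.56 to 29.2 TPM in the other regions. Among those tested, the glutamate transporter gene SLC1A6 was higher in CB, with a log2 difference of 2.56 ± 0.60 (SE, adjusted p = 0.00746, limma). PVALB, a further EF-hand protein of Purkinje cells and interneurons, had a log2 difference of 0.50 (adjusted p = 0.682). CA8 (1.07, adjusted p = 0.528) and ITPR1 (0.01, adjusted p = 0.994) did not pass either (limma). Of 3 neocortical neuron markers tested, NRGN and NEUROD6 were lower in CB. SST was lower among 5 markers of GABAergic neurons, C1QL2 was the only dentate granule cell marker tested and was lower, and neither of 2 CA1 pyramidal cell markers passed. The 6 astrocyte, 4 oligodendrocyte and 1 microglia markers tested did not pass in either direction. What part cell composition had in the CALB1 and HPCA differences was not tested.

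In the hippocampus, HPCA reached its highest values in DG. CA1 libraries had 195 to 1076 TPM with a median of 540, and the highest was the library of 20-yr-old males. DG libraries had 2020 to 3810 TPM with a median of 3086, and the lowest was the library of 1-yr-old males. CA1 and DG did not overlap, and all CA1 libraries lay below all DG libraries for 0.278% of all genes tested. Outside DG, 1 of 56 libraries reached the lowest DG library, PCC of 20-yr-old females with 2052 TPM. HPCA averaged 573 ± 288 TPM in CA1 and 3024 ± 563 TPM in DG (SD, n = 8 each), and it was lower in CA1 in 8 of 8 animal groups.

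The log2 difference of HPCA between CA1 and DG was −2.55 ± 0.95 (SE), with an adjusted p of 0.0494 (limma, Benjamini-Hochberg). Between CA1 and DG, 19.4% of all genes tested were called, 18.5% as higher and 0.852% as lower in CA1, and the median of all genes was 1.37. CA1 libraries listed a median of 5474 genes and DG libraries 2220. With the log2 number of genes listed as a covariate the HPCA difference was −4.52 with an adjusted p of 0.0087 (limma). HPCA, the only one of the 3 genes called here, thus went against the bulk of the genes. The SE pools the residual spread of all regions, and the SD of the difference over the 8 animal groups was 0.61. The call stood close to its threshold. It was lost with quantile normalization (−2.07, adjusted p = 0.148, limma), and also with a pseudocount of 0.25 TPM, no filter or TCs of at least 2 TPM (adjusted p = 0.0937, 0.0573 and 0.0542). It was lost as well in 7 of the 8 fits that left out an animal group, with adjusted p-values from 0.0737 to 0.113, and it held without the 20-yr-old females (adjusted p = 0.0235). Within 500 nt of the start the log2 difference had the opposite sign, 1.54 with an adjusted p of 0.277 (limma). The medians there were 18.1 TPM in CA1 and 3.96 TPM in DG, while the means were 28.4 and 32.8 TPM.

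CALB1 in CA1 had 40.4, 23.9, 87.3 and 0 TPM in males of 1, 4, 10 and 20 yr and 9.19, 30.2, 77.5 and 51.3 TPM in females of these ages. In DG it had 475, 489, 254 and 0 TPM in males and 172, 79.1, 482 and 454 TPM in females. The libraries of 20-yr-old males were the only ones at 0 in both regions. CALB1 averaged 40.0 TPM in CA1 and 301 TPM in DG and was lower in CA1 in 7 of 8 animal groups, with both at 0 in the last. The log2 difference of −2.57 ± 1.12 (SE) did not pass the test across all genes (adjusted p = 0.0944, limma with Benjamini-Hochberg adjustment). It passed with quantile normalization, −3.99 with an adjusted p of 0.0207, and with the log2 number of listed genes as a covariate, −5.06 with an adjusted p of 0.0108.

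HPCAL1 was low in both hippocampal regions, with 0 to 75.0 TPM in CA1 (median 14.6) and 0 to 68.1 TPM in DG (median 4.26). Its log2 difference of 1.05 ± 1.32 (SE) had a 95% interval from −1.59 to 3.70, lay under the median of all genes and turned to −0.69 with quantile normalization and to −1.10 with the covariate. The 4 markers of CA1 pyramidal cells with a TC, of 5 listed, were weak, with a median summed level of 6.47 TPM in CA1 and 0 in DG. Temporal cortex had a higher median for them, 10.9 TPM, so these markers did not set CA1 apart. Those of dentate granule cells, 3 of 5 with a TC, had a median summed level of 29.6 TPM in CA1 and 115 TPM in DG, the highest median of the 8 regions, with 83.4 TPM in temporal cortex. In DG this sum was C1QL2 alone, as PROX1 and DSP averaged 0 TPM there. By its mean C1QL2 did not set DG apart, with 101 TPM in DG, 130 TPM in PCC and 105 TPM in PC. The only one tested, C1QL2, did not pass between CA1 and DG. Higher in CA1 (limma) were MOBP and MOG of 4 oligodendrocyte markers tested, CSF1R, the 1 microglia marker tested, and SLC1A2 of 6 astrocyte markers. Of 3 neocortical neuron markers tested, NEUROD6 and FEZF2 were higher as well, and NRGN did not pass. The astrocyte gene ALDOC had a difference of −1.31 that did not pass. Of all genes tested, 18.5% were called as higher in CA1. The markers are given beside the values above, and their part in them was not tested.

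Between hippocampus and neocortex CALB1 was called, but its difference varied widely between animal groups. Hippocampal libraries had 0 to 489 TPM with a median of 78.3, and neocortical libraries had 0 to 577 TPM with a median of 11.97. CALB1 was listed in 14 of 16 hippocampal and 24 of 40 neocortical libraries, and both ranges overlapped almost wholly. The log2 difference was 2.56 ± 0.66 (SE), with an adjusted p of 0.00995 (limma, Benjamini-Hochberg), and the hippocampal mean was higher in 5 of 8 animal groups in TPM. In this comparison 8.19% of all genes tested were called, 7.98% as higher in the hippocampus, and the median of all genes was 0.55. CALB1 was the only one of the 3 called. Its adjusted p was 0.0692 without 10-yr-old females, 0.0686 without 20-yr-old females, and 0.341 with the covariate (difference 1.40).

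HPCA had 195 to 3810 TPM in the hippocampus with a median of 1548 and 0 to 2052 TPM in the neocortex with a median of 604. It averaged 1798 TPM in the hippocampus and 668 TPM in the neocortex and was higher in the hippocampus in 8 of 8 animal groups. The higher hippocampal mean came from DG, with 3024 TPM, as CA1 averaged 573 TPM, under the neocortical mean. In mean log2(TPM + 1) HPCA had 11.54 in DG, 8.99 in CA1 and 8.77 in the neocortex. Its log2 difference of 1.49 ± 0.56 (SE) did not pass (adjusted p = 0.0876, limma with Benjamini-Hochberg adjustment), and passed with quantile normalization (1.74, adjusted p = 0.0331) and with TCs near the start alone (2.43, adjusted p = 0.00706). With the log2 number of genes listed as a covariate it was 0.58 (adjusted p = 0.739, limma). HPCAL1 went the other way. It averaged 21.9 TPM in the hippocampus and 70.4 TPM in the neocortex and was lower in the hippocampus in 8 of 8 animal groups, with a log2 difference of −1.14 ± 0.78 (SE) that did not pass (adjusted p = 0.399). Among the markers, all 4 oligodendrocyte genes tested, GFAP of 6 astrocyte genes and NEUROD1 of 4 cerebellar granule cell genes were also higher in the hippocampus (limma). Of 3 neocortical markers tested, FEZF2 and NEUROD6 were higher. NRGN, the third, had a difference of −0.48 and SLC1A3 of astrocytes −0.32, and neither passed. Of all genes tested, 7.98% were called as higher in the hippocampus. The part of these markers in the values above was not tested.

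Because HPCA and HPCAL1 are close relatives, the log2 ratio of HPCA to HPCAL1, each as TPM + 1, was compared between regions within animal groups. The level of the ratio says nothing of which gene had more RNA. The mean log2 ratio was −3.49 in CB and 5.26 in the other regions, a difference of −8.75 ± 4.90 (SD, n = 8 animal groups). All 8 animal groups had the lower ratio in CB, with a two-sided p of 0.00781 by an exact sign-flip test, the smallest possible, and an adjusted p of 0.0469 over 12 tests. Hippocampus and neocortex differed too, with 7.14 and 4.51, a difference of 2.64 ± 1.26 with the same sign in 8 of 8 (adjusted p = 0.0469, exact sign-flip). CA1 and DG, with 5.34 and 8.95, differed by −3.60 ± 4.50 with the same sign in 6 of 8 and did not pass (adjusted p = 0.15, exact sign-flip). The ratio was thus lower in CB than elsewhere and higher in the hippocampus than in the neocortex. Within the hippocampus it was 5.34 in CA1 and 8.95 in DG, against 4.51 in the neocortex. The CB and hippocampus differences are those of HPCA (−7.05 and 1.49) minus those of HPCAL1 (1.70 and −1.14). They restate differences given above, of which those of HPCAL1 did not pass. With TCs within 500 nt of the start alone neither difference passed, at −0.92 and 2.78.

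**Figure D3:**
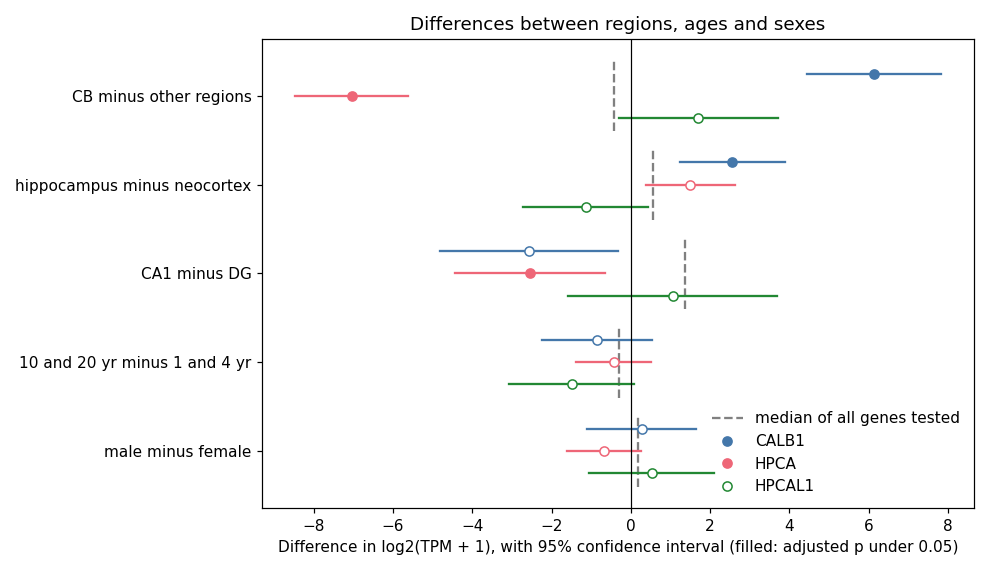
Differences of CALB1, HPCA and HPCAL1 in log2(TPM + 1) on the x-axis for 5 comparisons on the y-axis, with 95% confidence intervals from limma. Filled points have an adjusted p under 0.05 and dashed lines give the median of all genes tested. CALB1 (6.14) and HPCA (−7.05) lie on opposite sides in CB, and no gene passes for age or sex.

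Within the neocortex, HPCA was broad and CALB1 patchy. HPCA was listed in 39 of 40 neocortical libraries, the exception being PC of 20-yr-old females. It averaged 598 ± 226 TPM in PFC, 868 ± 781 TPM in PCC, 652 ± 225 TPM in temporal cortex and 728 ± 389 TPM in OC (SD, n = 8 each). PC libraries had 0 to 1335 TPM with a median of 403. PCC had the widest spread, with 9.87 and 36.0 TPM in 4- and 10-yr-old males and 1930 and 2052 TPM in 1- and 20-yr-old females. The 4 male PCC libraries had at most 610 TPM, and all 4 female ones had at least 605 TPM, so the ranges overlapped. This split was chosen after the values were seen, was not tested, and no share of all genes was counted for it.

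CALB1 was listed in all 8 PFC libraries and in 7 of 8 of temporal cortex, but in 4 of PC, 4 of OC and 1 of PCC. The PFC libraries had 12.9 to 577 TPM with a median of 52.6, and those of temporal cortex 0 to 150 TPM with a median of 58.6. In OC all 4 male libraries were listed, with 222, 11.0, 28.0 and 15.7 TPM in order of age, and all 4 female libraries were at 0. Such a separation, males above females in OC with no overlap, was met by 0.77% of all genes tested. It was chosen after the values were seen and was not tested.

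By its median HPCAL1 was highest in OC among neocortical regions, with 0 to 464 TPM and a median of 165. Its 2 lowest libraries, at 0, were 10-yr-old males and 4-yr-old females. PCC was the region where HPCAL1 was listed in all 8 libraries, at 1.61 to 233 TPM with a median of 20.1, and in 6 of those 8 only near the start. In OC, 5 of 8 libraries listed TCs in the last 10% of the gene, and the highest single one, 112101 nt after the start, held 8.93% of all HPCAL1 TPM from 1 library. The share of TPM within 500 nt of the start was compared between regions in 9 of these 12 exact sign-flip tests, and none passed. HPCA in CB and HPCAL1 in CA1 against DG, with 4 animal groups each and a smallest possible p of 0.125, could not have passed, and HPCAL1 in CB, with 6, had a smallest possible p of 0.0312 before adjustment. The lowest adjusted p was 0.0938, for HPCA in CA1 against DG, with 8.18% and 1.05% near the start and 7 of 8 animal groups higher in CA1. For HPCAL1 this share was 22.5% in CB and 50.6% elsewhere over 6 animal groups (exact sign-flip test, adjusted p = 0.375).

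**Figure D4:**
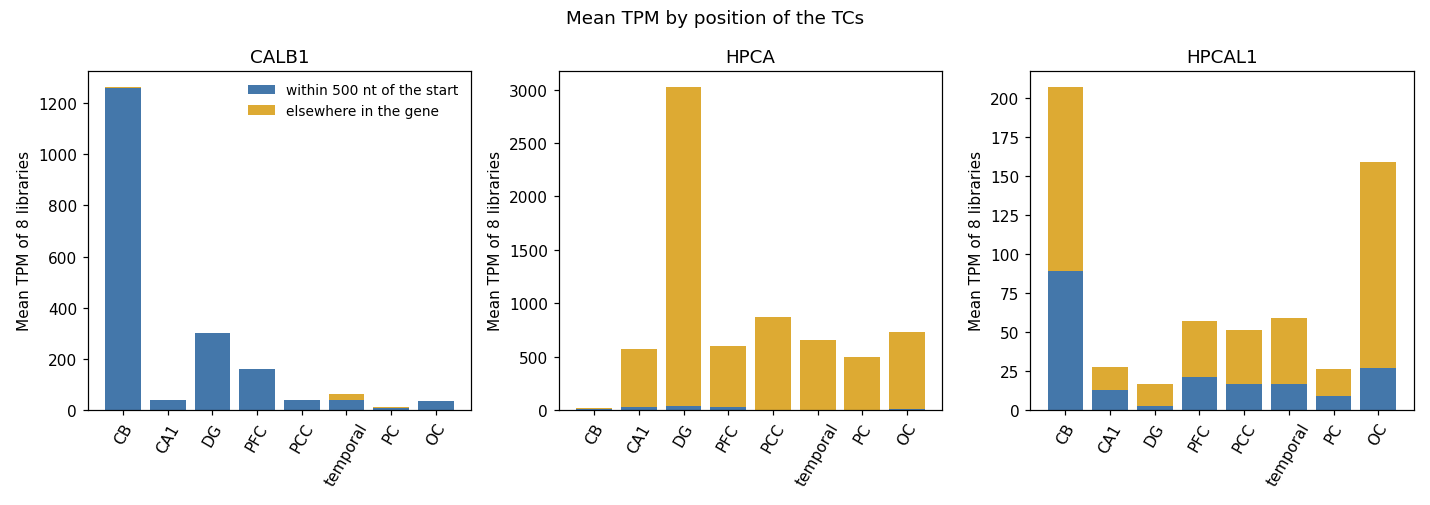
Mean TPM of 8 libraries by region, split into TCs within 500 nt of the annotated start and TCs elsewhere in the gene. The x-axes give the region and the y-axes TPM from 0, with a scale for each gene. CALB1 bars are almost wholly near the start except in temporal cortex, HPCA bars almost wholly elsewhere, and HPCAL1 bars are mixed, with 88.9 TPM near the start and 118 TPM elsewhere in CB.

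Ordered by mean log2(TPM + 1), CALB1 ran CB, DG, PFC, temporal cortex, CA1, OC, PC and PCC. CB exceeded DG in 8 of 8 animal groups by 3.03 ± 3.24 (SD) on the log2 scale, a mean below its spread, with DG of 20-yr-old males at 0. No pair of neighbours in this order differed beyond its spread. HPCA ran DG, OC, temporal cortex, PFC, CA1, PCC, PC and CB. DG exceeded OC by 2.22 ± 0.91 (SD) in 8 of 8 animal groups, and PC exceeded CB by 5.51 ± 5.12 in 7 of 8, and the neighbours between did not differ beyond their spread. HPCAL1 ran CB, temporal cortex, OC, PCC, PFC, CA1, PC and DG, with no neighbours beyond their spread. A difference beyond the spread means here that its mean exceeded its SD and at least 7 of 8 animal groups shared its sign.

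Age and sex gave no call for any of the 3 genes. Over all regions, HPCAL1 had medians of 86.7, 15.2, 4.34 and 5.49 TPM at 1, 4, 10 and 20 yr, and it was listed in 15, 12, 13 and 11 of 16 libraries. CALB1 had medians of 91.1, 39.2, 56.4 and 15.7 TPM at these ages and was listed in 12, 13, 12 and 9 libraries. HPCA stayed within 564 to 692 TPM in its medians over all regions. The median number of genes listed was 2908, 2518, 2521 and 2276 in order of age.

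HPCAL1 had a median of 5.04 TPM in the 32 libraries of 10 and 20 yr and 53.0 TPM in the 32 of 1 and 4 yr, CALB1 33.3 and 49.97 TPM, and HPCA 577 and 607 TPM, with ranges that overlapped widely. Tested on 8 animal-group means, the log2 difference was −1.49 ± 0.72 (SE) for HPCAL1 (adjusted p = 0.544), −0.85 ± 0.63 for CALB1 (adjusted p = 0.691) and −0.44 ± 0.43 for HPCA (adjusted p = 0.786, limma with Benjamini-Hochberg adjustment). Here 0% of all genes tested were called, 585 had an unadjusted p under 0.05, and the median of all genes was −0.30. Whether the age difference varied between regions was tested in 1 model, with F = 1.88 for HPCAL1 (adjusted p = 0.742), 1.18 for HPCA (adjusted p = 0.884) and 0.41 for CALB1 (adjusted p = 0.996, limma). Of all genes 0% were called in it, and 454 had an unadjusted p under 0.05. Males and females had medians of 33.3 and 51.5 TPM for CALB1, 539 and 681 TPM for HPCA, and 31.4 and 18.3 TPM for HPCAL1. The male minus female log2 difference was 0.27 ± 0.63 (SE) for CALB1, −0.68 ± 0.43 for HPCA and 0.52 ± 0.72 for HPCAL1 (limma, adjusted p from 0.914 to 0.975), with 0% of all genes called and 349 at an unadjusted p under 0.05. These designs had 8 animal-group means, and on simulated data a log2 change of 2 by age was found for 37 of 50 genes. The simulated libraries had independent noise, with no part shared within an animal group, and a spread taken from listed values alone. The count can therefore overstate what the test finds in libraries that share animals and for genes at 0 in many libraries.

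The age values held several local patterns, which were chosen after they were seen and were not tested, and 2 are given first. In the neocortex the 10 libraries of 1 yr had 64.7 to 250 TPM of HPCAL1 with a median of 113, and the 30 libraries of 4, 10 and 20 yr had 0 to 464 TPM with a median of 5.89. Of these 30, 6 reached the lowest 1-yr-old library, 2 at each later age, so the ages overlapped. Of all genes tested, 0.0328% were listed in all 1-yr-old neocortical libraries with as few later ones reaching the lowest, a limit set at the value of HPCAL1 itself, so it is a description. On neocortical means the log2 difference of 10 and 20 yr from 1 and 4 yr was −2.58 for HPCAL1 and did not pass (adjusted p = 0.36, limma). In PFC, CALB1 had 429, 12.9, 50.9 and 35.9 TPM in males of 1, 4, 10 and 20 yr and 577, 48.2, 71.0 and 54.3 TPM in females. Both 1-yr-old PFC libraries lay above the 6 later ones, which 6.89% of all genes tested also showed in that direction. In the other neocortical regions no such gap was seen in CALB1, and in CB its 1-yr-old libraries, with 1364 and 1421 TPM, lay inside the range of the older ones. Other 1-yr-old libraries also lay apart from all later ones of their region. HPCA in PC had 968 and 1335 TPM at 1 yr and at most 526 TPM later. In CA1 HPCA had 195 and 356 TPM at 1 yr and at least 375 TPM later. In DG it had 2020 and 2641 TPM at 1 yr and at least 2732 TPM later. HPCAL1 in CA1 had 61.3 and 75.0 TPM at 1 yr and at most 41.7 TPM later. In PCC HPCAL1 had 87.5 and 233 TPM at 1 yr and at most 41.3 TPM later. In PC it had 64.7 and 77.6 TPM at 1 yr and at most 40.0 TPM later. Shares of all genes were not counted for these. The split of CALB1 in PFC was met by 6.89% of all genes tested, so such splits are given as a description alone.

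**Figure D5:**
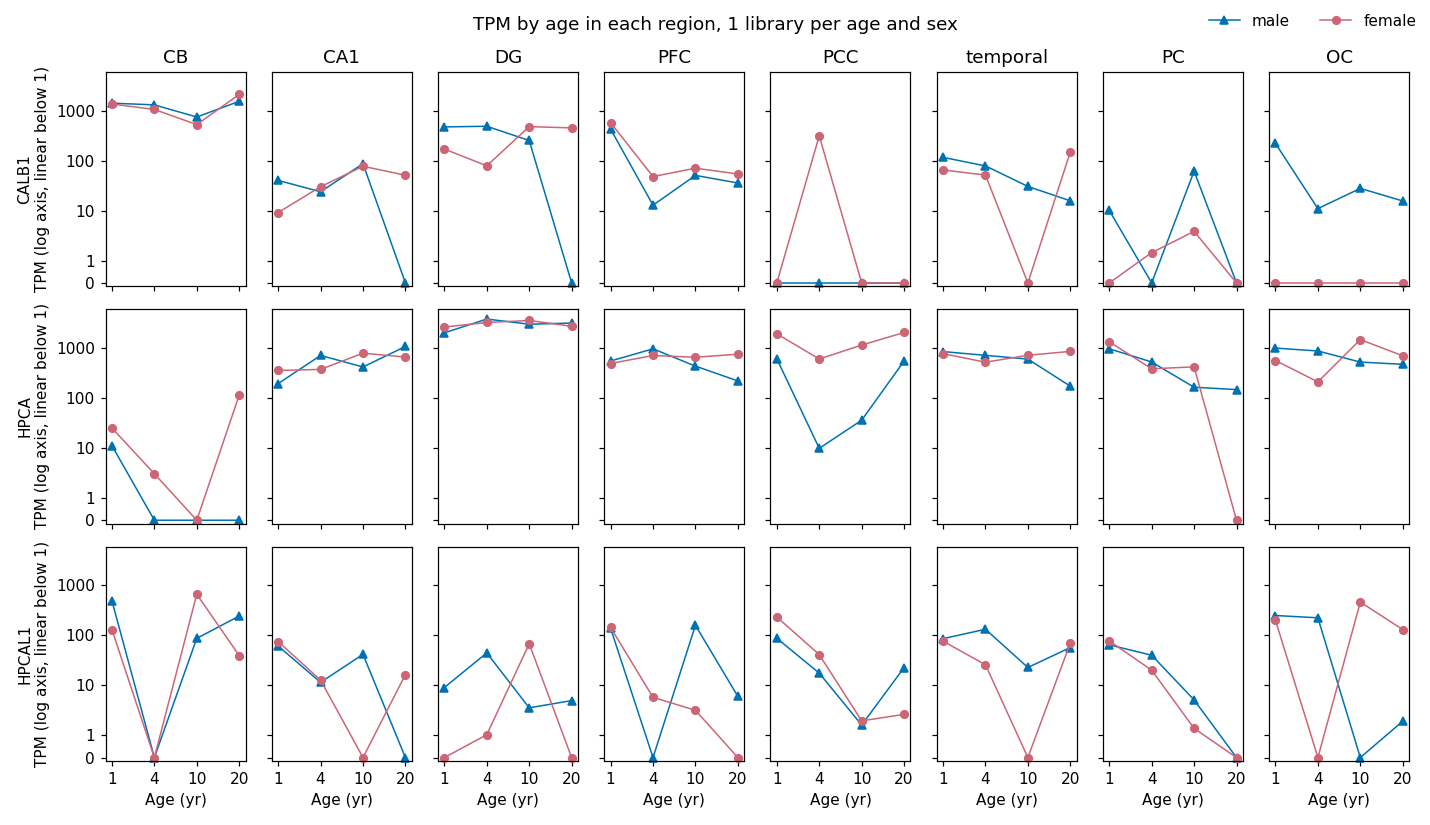
TPM of CALB1, HPCA and HPCAL1 by age in each region, 1 library per age and sex. The x-axes give the 4 ages in yr, evenly spaced, and the y-axes TPM on a log axis that is linear below 1, with triangles for males and circles for females. In PFC the 1-yr-old libraries of CALB1 lie at 429 and 577 TPM against 12.9 to 71.0 TPM later, and HPCA in DG lies between 2020 and 3810 TPM at every age.

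Other genes of calcium signalling were taken from 3 lists, whose counts are set beside the background shares given above. Among 14 neuronal calcium sensors, 7 had a TC and 5 were tested. HPCA was the only one called in CB, and the median log2 difference of the 5 was −1.59. NCALD, which encodes neurocalcin delta, was listed at 0 in all CB libraries and averaged 13.4 to 76.3 TPM in the other regions except PCC, where it was also at 0, and did not pass (adjusted p = 0.188, limma). KCNIP2, whose protein binds Kv4 potassium channels, averaged 72.7 TPM in CB and 19.9 TPM in CA1 to 158 TPM in DG elsewhere (difference −1.59, adjusted p = 0.578). Between CA1 and DG, KCNIP4, of the same group, was higher in CA1, with a mean of 12.6 TPM in CA1 and no listed value in DG (adjusted p = 0.0311, limma), and HPCA was the one lower. The 1 of 5 higher in CA1 stands beside 18.5% of all genes. None of the 5 was called between hippocampus and neocortex by limma, where KCNIP4 had a log2 difference of 0.76, the median of the 5.

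Of 31 other EF-hand genes, 21 had a TC and 15 were tested, of which 2 were higher and 2 lower in CB, with a median of −0.68. The higher ones were CALB1 and CALB2, which encodes calretinin, with a mean of 250 TPM in CB and 9.19 to 133 TPM elsewhere (difference 3.68 ± 0.99, adjusted p = 0.0286, limma). The lower ones were S100A1, with a mean of 1883 TPM in CB and 3111 to 8360 TPM elsewhere (−1.67 ± 0.36, adjusted p = 0.0028), and S100A6, with 2.64 TPM in CB and 40.7 to 208 TPM elsewhere (−3.79 ± 1.03, adjusted p = 0.0303). Both encode small proteins of the S100 family. In the hippocampus against the neocortex CALB1 and CALU, which encodes calumenin, were higher (limma). Between CA1 and DG, CALU, CIB1 and NECAB1 were higher and CETN3, a centrin, was lower in CA1, with 1.96 TPM in CA1 and 196 TPM in DG. The 3 of 15 higher in CA1 lie near the share of all genes, 18.5%. In the hippocampus it was 2 of 15, beside 7.98% of all genes.

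Of 24 genes of calcium channels, pumps and calmodulin targets, 22 had a TC and 17 were tested, of which 0 were higher and 2 lower in CB (limma), with a median of −0.34. NRGN, which encodes neurogranin, a neuronal calmodulin-binding protein, was listed at 0 in all 8 CB libraries and averaged 160 to 353 TPM elsewhere (adjusted p = 3.07e-17, limma). CAMKV, a kinase-like protein of neuronal vesicles, was also at 0 in CB and averaged 74.2 to 211 TPM elsewhere (adjusted p = 0.000578, limma). CACNA1A, the pore of P/Q-type calcium channels, averaged 77.6 TPM in CB and 0 to 44.4 TPM elsewhere, and CAMK2A 0 TPM in CB and 1.72 to 159 TPM elsewhere, and neither passed (adjusted p = 0.146 and 0.158, limma). In the hippocampus CAMK2A and RYR2 were higher than in the neocortex, and in CA1 ATP2B1, CAMK2B and CACNA1E were higher and PPP3CB lower than in DG (limma). The 3 of 17 higher in CA1 lie near the share of all genes, 18.5%. In the hippocampus it was 2 of 17, beside 7.98% of all genes. Genes called outside CB were chosen for naming after their values were seen.

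The genes most like each of the 3 were found by Pearson's r of log2(TPM + 1) over the 64 libraries, which share animal groups and regions, and are given as a description. CALB1 was most like EMD (0.61), NFIB (0.60), HOMER3 (0.59), SURF6 (0.59) and UCK1 (0.57), and with region means subtracted their r was 0.58, 0.35, 0.29, 0.52 and 0.28. HOMER3 encodes a postsynaptic scaffold protein and NFIB a transcription factor. Their means in CB were 211 and 443 TPM, the highest of the 8 regions for each. HPCA was most like CHGA (0.67), NRGN (0.67), SYT5 (0.66), PDZD4 (0.62) and KCTD17 (0.59), and with region means subtracted their r was 0.28, 0.14, 0.35, 0.29 and 0.37. CHGA encodes chromogranin A of secretory granules and SYT5 a synaptotagmin, and CHGA, like NRGN, was at 0 in all CB libraries. HPCAL1 was most like TYRO3 (0.49), ZSCAN21 (0.46), PTN (0.43), RCAN1 (0.42) and UBL5 (0.42), with 0.48, 0.43, 0.48, 0.40 and 0.49 after subtraction, of which RCAN1 encodes a regulator of the calcium-dependent phosphatase calcineurin. Between the 3 genes themselves r was −0.25 for CALB1 and HPCA, 0.18 for CALB1 and HPCAL1, and −0.07 for HPCA and HPCAL1. With region means subtracted these were 0.09, 0.23 and 0.20.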

How the data were processed

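The authors filtered CAGE-seq reads, aligned them with TopHat2 to the MMUL 1.0 genome, kept uniquely mapped reads, called TCs from read 5′ ends and assigned them to Ensembl genes. The deposited values are RPM, called TPM by the authors, tags of each TC scaled to the library total with no length correction, listed from 1 TPM. No column lacked a sample (0). A gene was tested when 8 or more libraries reached 1 TPM. The two-sided test was limma 3.58.1 in R 4.3.3 on log2(TPM + 1), with region and animal group as terms. The animal group is a block because all 8 regions came from the same animals. Age and sex used the means of the 8 animal groups. Each age and sex had 2 animals. The study made its RNA-seq libraries from age- and sex-matched pairs, and its CAGE-seq from these samples. In the region tests the p-values rest on the residual spread pooled over all regions, and for age and sex on that between animal groups. Calls had a Benjamini-Hochberg adjusted p under 0.05. Shares and ratios had exact sign-flip tests. Python 3.11.15, NumPy 2.4.6, SciPy 1.17.1, pandas 2.3.3 and Matplotlib 3.10.9 were used. The genes, gene lists and tests were chosen with earlier results of these data known. Genes were named by a rule: the 3 genes, up to 4 per calcium list with the smallest p in CB, and the 5 most alike by r. Marker genes, genes called outside CB and the patterns marked as such were named outside it. Lists of 12 kinds were used, 3 of calcium-related genes and 9 of cell type markers. With data simulated for the CB comparison of 6100 genes, the fit recovered 1, 10, 39 and 48 of 50 genes given log2 changes of 1, 2, 3 and 4, with 3 false calls. The simulated noise was independent between libraries, and its spread was taken from the listed values of a gene alone. These counts can therefore overstate what the fit finds for genes at 0 in many libraries. Alternatives covered the pseudocount, the filter, quantile normalization, the block, the minimum TPM, the distance to the start, a covariate of listed genes, the neocortical means, and leaving out each animal group or the PFC library of females at 20 yr. The result of 1 marker gene is not reported here.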

Additional observations from a re-analysis of the deposited data

Results flagged for a closer look

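Each of the 3 genes was checked in each of the 8 regions for a library far from the other 7, by the gap to the nearest library over the whole range, against Dixon's critical value. Of these 24 groups, 5 had such a library, and chance gives about 1 in 20 groups for normally distributed values. That rate does not hold for TPM with many libraries at 0, and with 7 at 0 any listed value stands apart. CALB1 had 315 TPM in PCC of 4-yr-old females, where the other 7 PCC libraries were at 0. It had 61.9 TPM in PC of 10-yr-old males, with 10.1 TPM in the next library, and 222 TPM in OC of 1-yr-old males, with 28.0 TPM in the next. HPCA had 114 TPM in CB of 20-yr-old females, with 25.2 TPM in the next library. HPCAL1 had 233 TPM in PCC of 1-yr-old females, with 87.5 TPM in the next. All 5 were the highest library of their region, and 4 of the 5 lay in groups with libraries at 0. The cause of these values was not tested.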

How the results depend on the processing

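The calls of CALB1 and HPCA in CB rest on 8 libraries of 1 region, values under 1 TPM are not listed, and annotated starts were used as given. Of 191 values under alternatives that kept every animal group, 160 kept their direction and their side of the threshold. With TCs within 500 nt of the start alone, the CB difference was −1.02 for HPCA and −0.10 for HPCAL1, with 45 genes called in all. The hippocampus difference of HPCA was then 2.43, its CA1 difference 1.54 and its sex difference 0.15, and the log2 ratio of HPCA to HPCAL1 differed by −0.92 in CB, 2.78 in the hippocampus and 0.54 in CA1. With the log2 number of listed genes as a covariate, the hippocampus difference of CALB1 was 1.40 and the CA1 differences were −5.06 for CALB1 and −1.10 for HPCAL1, with 123 genes called for the hippocampus and 187 for CA1, against 500 and 1182. With quantile normalization HPCA differed by 1.74 in the hippocampus and by −2.07 in CA1 (adjusted p = 0.148, limma), CALB1 by −3.99 and HPCAL1 by −0.69 in CA1 and CALB1 by −0.036 between the sexes, with 148 and 276 genes called. The CA1 difference of HPCA did not pass with a pseudocount of 0.25 TPM (−2.55, adjusted p = 0.0937), no filter (−2.55, 0.0573), TCs of at least 2 TPM (−2.56, 0.0542) or without the PFC library of 20-yr-old females (−2.55, 0.0518). No filter gave 755 and 1838 genes called for the hippocampus and CA1. Means over the neocortical regions gave 1 gene called by age. The difference of the HPCAL1 share near the start between CA1 and DG was −2.99 with TCs of at least 2 TPM and −11.5 within 100 nt, against 0.59. With a pseudocount of 0.25 TPM, 3 of the 5 genes most like HPCAL1 stayed among its 5. The cause of these changes was not tested.

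Leaving out each animal group in turn gave 5.77 to 6.38 for CALB1 and −7.80 to −6.63 for HPCA in CB, all called. It gave 2.08 to 3.30 for CALB1 in the hippocampus (adjusted p from 0.00135 to 0.0692), −2.69 to −2.43 for HPCA in CA1 against DG, −0.19 to 0.89 for CALB1 and −0.22 to 1.10 for HPCAL1 between the sexes, and −3.83 to 20.8 for the HPCA share near the start in CB. Genes called ranged from 86 to 136 in CB, from 196 to 465 for the hippocampus, from 644 to 1185 for CA1 and from 0 to 1 by age. The log2 ratio of HPCA to HPCAL1 ranged from −9.43 to −7.64 in CB and from 2.38 to 2.91 in the hippocampus, with adjusted p from 0.0625 to 0.0938, where 7 animal groups allow no exact p under 0.0156. With no replicate block, that is without the pairing of libraries by animal group, the CB differences were again 6.14 for CALB1 and −7.05 for HPCA with 119 genes called, and no call of the 3 genes changed.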
